A study of Homo sapiens with 4 samples.

Results

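Nicotinic acetylcholine receptors are ion channels built from 5 subunits, and the 7 genes described here encode subunits found in sympathetic neurons (CHRNA3, CHRNA5, CHRNA7, CHRNB2 and CHRNB4) and in skeletal muscle (CHRNA1 and CHRNB1). They were chosen by gene symbol, and all 7 have a row among the 28063 genes of the count tables. Poly(A) RNA had been sequenced from KELLY, a neuroblastoma cell line of human origin. All cells carried a lentivirus and had been selected with puromycin. In the WT group, with 2 libraries, the virus encoded wild-type IWS1 with a FLAG tag, and in the M3 group, also with 2 libraries, it encoded IWS1-FLAG in which TIM3, a TND-interacting motif, was disrupted. IWS1 acts with RNA polymerase II during elongation, and TIMs are short stretches of protein that bind a folded domain, the TND, of partner proteins. The labels name no removal of the cells' own IWS1, and do not say whether the libraries of a group came from separate cultures. The p-values here therefore only set the difference between groups against the spread of these 4 libraries within groups, and that spread may be technical.

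In autonomic ganglia, acetylcholine released by the preganglionic neuron opens nicotinic receptors on the postganglionic neuron. The ganglionic receptor is built mainly from alpha 3 and beta 4 subunits, with alpha 5 or beta 2 as further partners, while alpha 7 forms channels from 1 kind of subunit. The receptor of adult muscle combines alpha 1, beta 1, delta and epsilon subunits, with gamma in place of epsilon before birth. CHRNA5, CHRNA3 and CHRNB4 lie side by side on chromosome 15. CHRNA5 lies on the plus strand and the other two on the minus strand.

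The start regions of 4 subunit genes are printed because they belong to genes read at very different levels in these cells: CHRNA3, CHRNB4 and CHRNB2 had at least 1410 reads in every library, and CHRNA1 had a single read in all. Each is a window of 300 bases from RefSeq (GRCh38.p14), from 250 bases before to 50 bases after an annotated start, in the direction of transcription. The windows are at chr15:78620947-78621246 (minus strand) for CHRNA3, chr15:78641161-78641460 (minus strand) for CHRNB4, inside the span RefSeq gives that gene, chr1:154567528-154567827 (plus strand) for CHRNB2 and chr2:174764423-174764722 (minus strand) for CHRNA1. Capitals mark 2 motifs on either strand, the GC box GGGCGG and the E-box CANNTG.
CHRNA3: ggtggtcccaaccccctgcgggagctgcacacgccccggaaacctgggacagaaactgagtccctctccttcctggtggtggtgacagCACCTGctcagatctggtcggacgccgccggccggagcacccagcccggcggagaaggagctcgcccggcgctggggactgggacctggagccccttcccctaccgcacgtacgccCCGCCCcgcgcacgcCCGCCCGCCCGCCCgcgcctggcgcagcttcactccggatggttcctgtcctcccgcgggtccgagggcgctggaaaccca
CHRNB4: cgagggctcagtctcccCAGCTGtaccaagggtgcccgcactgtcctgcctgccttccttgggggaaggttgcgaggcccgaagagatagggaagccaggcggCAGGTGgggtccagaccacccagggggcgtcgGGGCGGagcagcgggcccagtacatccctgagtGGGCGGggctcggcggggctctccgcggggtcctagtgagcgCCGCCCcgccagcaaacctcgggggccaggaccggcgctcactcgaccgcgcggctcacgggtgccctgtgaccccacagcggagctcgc
CHRNB2: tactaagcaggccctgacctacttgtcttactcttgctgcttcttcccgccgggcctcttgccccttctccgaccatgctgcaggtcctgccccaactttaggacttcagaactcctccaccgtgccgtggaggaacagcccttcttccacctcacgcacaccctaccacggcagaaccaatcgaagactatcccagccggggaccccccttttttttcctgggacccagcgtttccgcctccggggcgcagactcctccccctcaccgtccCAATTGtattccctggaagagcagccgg
CHRNA1: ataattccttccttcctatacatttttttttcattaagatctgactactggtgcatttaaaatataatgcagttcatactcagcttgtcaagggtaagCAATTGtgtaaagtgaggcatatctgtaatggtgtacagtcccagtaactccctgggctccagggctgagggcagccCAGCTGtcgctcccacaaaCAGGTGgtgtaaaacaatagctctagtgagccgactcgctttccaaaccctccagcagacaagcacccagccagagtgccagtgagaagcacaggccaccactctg

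The CHRNA3 window held GGGCGG 4 times, with first bases at -46, -31, -27 and -23 from the start, partly overlapping, and the CHRNB4 window held it 3 times, at -115, -82 and -40. Neither the CHRNB2 nor the CHRNA1 window held it. CANNTG was found once in CHRNA3 (-162), 2 times in CHRNB4 (-233 and -147), once in CHRNB2 (23) and 3 times in CHRNA1 (-152, -75 and -56). Of 35116 RefSeq windows of this length, 44.95% held GGGCGG and 68.7% held CANNTG on either strand. GC content was 72.7% in both the CHRNA3 and the CHRNB4 window, 60.3% in CHRNB2 and 47.3% in CHRNA1, beside a median of 58.7% over all windows. The CHRNB1 window (61% GC) held GGGCGG 2 times and CANNTG 4 times, and the 2 windows of CHRNA7 (79% GC each) held GGGCGG 6 times each. CHRNA7 was the only gene with CACGTG, a form of CANNTG, among the 6 with a window, and 7.26% of all windows held that motif. Neither TGACGTCA (1.85% of all windows) nor, outside CHRNB1, TATAAA (11.5%) was found. These matches describe letters only and say nothing of what binds there.

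KELLY cells contained much RNA of 4 neuronal subunit genes and little of the other members. Reads of the 7 genes summed to 11892 and 20375 in WT libraries 1 and 2 and to 13052 and 13775 in M3 libraries 1 and 2, out of 12289685 to 20962372 gene reads per library. CHRNA3, the ligand-binding alpha 3 subunit, took 54.8% and 53.6% of them in WT and 56.7% and 56.4% in M3. The accessory subunit gene CHRNA5 took 14.8% to 15.3%, CHRNB2 15.3% to 17.2% and CHRNB4 10.8% to 12.8%. CHRNA7 and CHRNB1 together made up under 2% in every library.

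Levels were compared between genes as CPM (gene reads per 1000000, scaled with TMM factors) per kilobase of exon. CHRNA3 was highest at 114 ± 5.76 (SD over the 4 libraries), followed by CHRNA5 at 40.7 ± 1.18, CHRNB2 at 26.9 ± 1.64 and CHRNB4 at 23.5 ± 1.39. CHRNB2 (24.7 to 28.3) and CHRNB4 (22.1 to 24.8) overlapped between libraries. CHRNB1 followed at 1.44 ± 0.370 and CHRNA7 at 0.338 ± 0.106. CHRNA3 exceeded every other subunit gene in every library by either length. The order of CHRNA5, CHRNB2 and CHRNB4 depended on the length used. Per kilobase of the longest transcript, CHRNB4 (44.6 ± 2.63) was above CHRNA5 (40.7 ± 1.18) in 3 of 4 libraries. It stood at 46.6 and 47.1 beside 40.3 and 40.1 for CHRNA5 in WT, and at 41.9 and 42.8 beside 42.5 and 40.01 in M3. Both were above CHRNB2 (27.1 ± 1.64). CHRNA7 moved to 1.15 ± 0.358 by this length, since its annotated exons cover 20978 nt and its longest transcript 6181 nt.

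**Figure D1:**
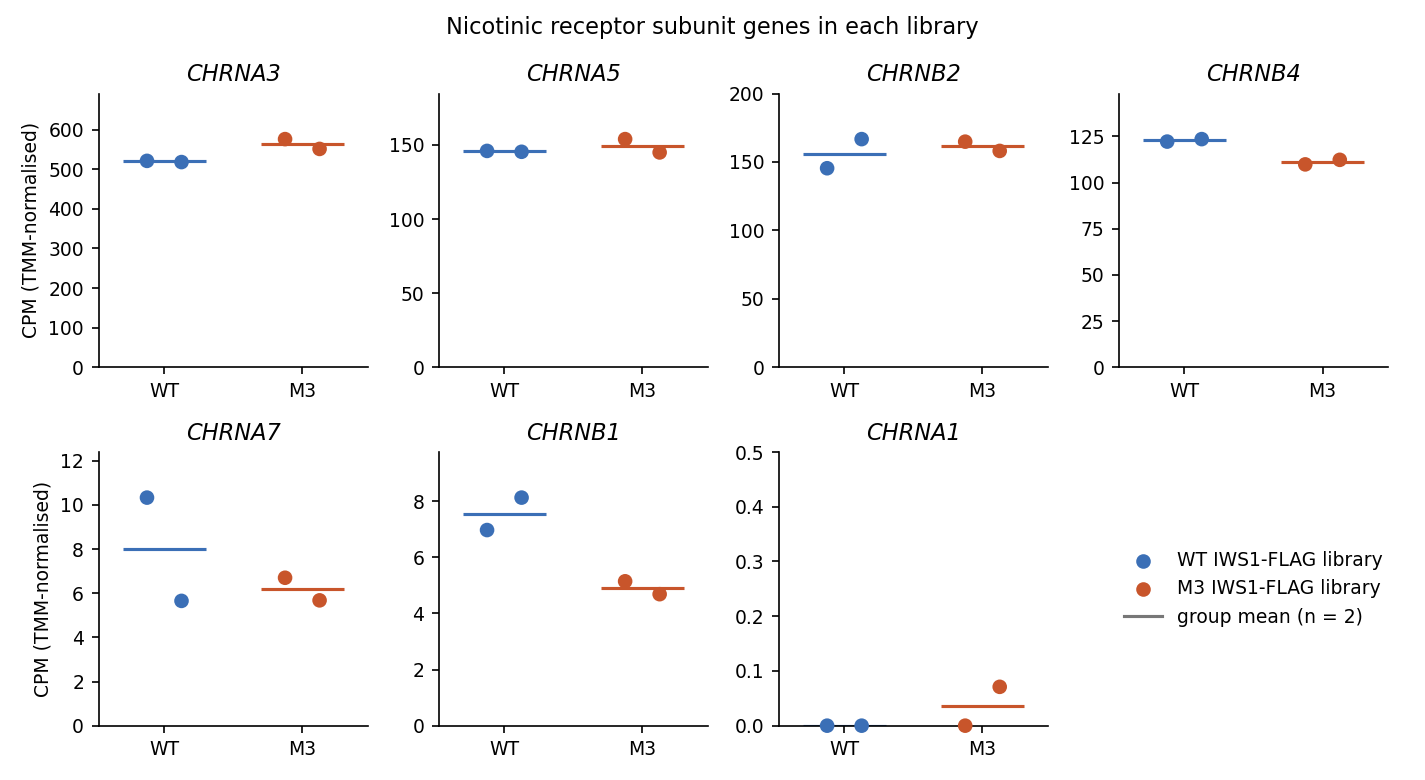
TMM-normalised CPM (y axis, from 0, its own scale in each panel) of the 7 subunit genes in the WT (blue) and M3 (orange) libraries, 1 point per library, with the mean of each group as a line. CHRNA3 lies between 518 and 576 CPM, CHRNB4 and CHRNB1 are lower in both M3 libraries, CHRNA7 is high in 1 WT library, and CHRNA1 is at or near 0.

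M3 was compared with WT to ask whether disrupting the motif went with a change in subunit RNA, with edgeR's quasi-likelihood test and Benjamini-Hochberg adjustment over all 14141 genes tested. Of the 7 members, 6 passed the filter on low counts. None was called at an adjusted p below 0.05, in either direction, beside 15.8% of all tested genes (9.16% higher and 6.63% lower in M3). One of the 6, CHRNB1, had an unadjusted edgeR p below 0.05, where 5078 of all genes did, and DESeq2 and limma-voom called none of the 6. The median log2 fold change of the 6 was -0.05, with 3 above and 3 below 0, beside -0.0065 over all tested genes. Groups did not overlap for 3 of the 6 (CHRNA3, CHRNB4 and CHRNB1), beside 68.2% of all tested genes. With 2 libraries on each side the smallest exact permutation p is 0.333, so no such test was used. In these bulk samples, fewer cells with a transcript and less of it per cell cannot be told apart.

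CHRNA3, whose product carries the main part of the acetylcholine site in ganglionic receptors, measured 521 and 518 CPM in the WT libraries and 576 and 552 CPM in the M3 libraries (6511, 10913, 7398 and 7774 reads). Both M3 libraries were above both WT libraries. The log2 fold change was 0.12 ± 0.13 (SE; edgeR adjusted p = 0.527), with a 95% interval of -0.17 to 0.40, which is 0.891-fold to 1.32-fold. CHRNA3 spans chromosome 15, 78593052 to 78620996 (GRCh38), and 4.16% of its exonic bases lie in CHRNA5 on the other strand.

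CHRNB4, the beta 4 partner of alpha 3 in ganglia, measured 122 and 124 CPM in the WT libraries and 109.9 and 112 CPM in the M3 libraries (1526, 2601, 1410 and 1583 reads). Both M3 libraries were below both WT libraries. Its log2 fold change was -0.15 ± 0.12 (edgeR adjusted p = 0.391; 95% interval -0.41 to 0.12), so a fall of 0.754-fold or a rise of 1.08-fold bounded it. The sign turned, to 0.10, once each library's trends on transcript length and GC were taken out (edgeR adjusted p = 0.564), in a fit that called 5.0% of all genes and none of the members. CHRNB4 spans 78624111 to 78661641 of chromosome 15.

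CHRNA5, an accessory subunit that joins alpha 3 receptors but does not form a channel on its own with a beta subunit, measured 146 and 145 CPM in the WT libraries and 154 and 145 CPM in the M3 libraries. The groups overlapped. Its log2 fold change was 0.04 ± 0.11 (edgeR adjusted p = 0.846; 95% interval -0.22 to 0.30), and -0.14 in the fit without length and GC trends. Of the exonic bases of CHRNA5 (chromosome 15, 78565520 to 78595269), 28.4% also lie in another annotated gene, 23.0% in an antisense gene and 5.47% in CHRNA3. Since no source used here gives the strand setting of the counting, the CHRNA5 count is uncertain.

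CHRNB2, the beta 2 subunit of many brain receptors and a partner of alpha 3 in part of the ganglionic receptors, measured 145 and 167 CPM in the WT libraries and 165 and 158 CPM in the M3 libraries. The M3 values lay between the WT values. The log2 fold change was 0.05 ± 0.12 (edgeR adjusted p = 0.807; 95% interval -0.23 to 0.33). The gene spans 154567778 to 154580013 of chromosome 1.

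CHRNA7, which forms calcium-permeable receptors from a single kind of subunit, had few reads: 129 and 119 for WT against 86 and 80 for M3, or 10.3 and 5.65 CPM in WT and 6.70 and 5.68 CPM in M3. WT library 1 stood above the other 3, which were close to each other. The log2 fold change was -0.34 ± 0.30 (edgeR adjusted p = 0.436; 95% interval -1.03 to 0.34). Its direction rested on WT library 1, since it was 0.12 without that library (edgeR adjusted p = 0.794) and -0.74 without WT library 2, where it was called (0.0107). In the fit without length and GC trends it was -0.70 (0.248).

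CHRFAM7A, a human-specific fusion gene that holds a partial copy of CHRNA7, shares sequence with it. Of all stretches of 50 bases in CHRNA7 transcripts, 23.7% also occur in CHRFAM7A transcripts, and 75.2% of those of CHRFAM7A occur in CHRNA7, so both counts are uncertain. CHRFAM7A measured 6.81 and 7.03 CPM in the WT libraries and 10.2 and 7.73 CPM in the M3 libraries, so the groups did not overlap, with a log2 fold change of 0.37 ± 0.22 (edgeR adjusted p = 0.248). It was 0.04 in the fit without length and GC trends (0.940) and 0.16 without M3 library 1 (0.865). The 2 genes together were at 17.1 and 12.7 CPM in WT and 16.9 and 13.4 CPM in M3, and these sums overlapped between groups. CHRNA7 made up 60.3% and 44.6% of the joint reads in the WT libraries and 39.6% and 42.3% in the M3 libraries.

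The muscle subunit gene CHRNB1, the beta 1 subunit of the neuromuscular junction, measured 6.97 and 8.12 CPM in the WT libraries and 5.14 and 4.68 CPM in the M3 libraries, from 87, 171, 66 and 66 reads. Both M3 libraries lay below both WT libraries. Its log2 fold change was -0.63 ± 0.22 (edgeR adjusted p = 0.0824), with a 95% interval of -1.13 to -0.12 that is not adjusted for the number of genes. It was called without WT library 1 (-0.73, adjusted p = 0.0320), and in no other fit that left out 1 library. In the fit without length and GC trends its log2 fold change was -0.44 (edgeR adjusted p = 0.278), and with DESeq2 it was -0.62 (DESeq2 adjusted p = 0.173). In CHRNB1 (chromosome 17, 7445061 to 7457710) 14.6% of exonic bases are shared with a noncoding gene on the same strand.

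CHRNA1, the ligand-binding subunit of the muscle receptor, had 0 reads in each WT library and in M3 library 1, and 1 read in M3 library 2. A count of 0 allows up to 3 reads, which is 0.240 and 0.143 CPM in the WT libraries and 0.234 CPM in M3 library 1. The gene (chromosome 2, 174747592 to 174764472) did not pass the filter and was not tested. The remaining muscle subunit genes had 2 to 6 reads per library (CHRND, delta), 1 to 17 (CHRNE, epsilon) and 2 to 8 (CHRNG, gamma), and 54.4% of the exonic bases of CHRNE lie in other genes.

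**Figure D2:**
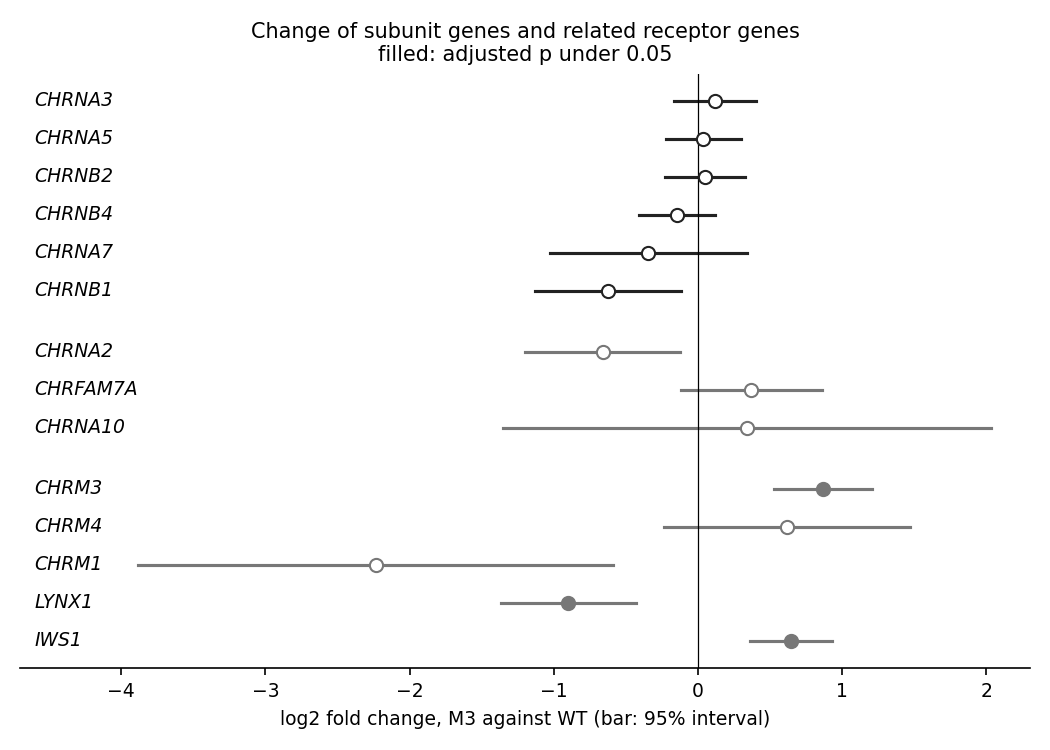
Log2 fold change of M3 against WT (x axis) with its 95% interval for the 6 tested subunit genes (black) and for related genes (grey). Filled points passed an adjusted p of 0.05. All 6 subunit genes are open points, and the intervals of CHRNA3, CHRNA5, CHRNB2 and CHRNB4 lie between -0.41 and 0.40.

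The make-up of the subunit RNA was also read within libraries, as reads per 100 CHRNA3 reads, which needs no scaling between libraries. CHRNB4 stood at 23.4 and 23.8 in WT and at 19.1 and 20.4 in M3, a difference of -0.26 on the log2 scale. CHRNA5 stood at 28.0 and 28.0 in WT and at 26.7 and 26.3 in M3, a difference of -0.08. CHRNB2 stood at 27.9 and 32.2 in WT and at 28.6 and 28.7 in M3, where the groups overlapped. The ratios of CHRNB4 and CHRNA5 were lower in both M3 libraries, while among all tested genes 69.1% had a ratio to CHRNA3 whose groups did not overlap. These differences carry no test of their own. In the fit without length and GC trends, the difference between the fitted changes of CHRNB4 and CHRNA3 was -0.08 and that between CHRNA5 and CHRNA3 was -0.32. The longest CHRNB4 transcript has 57.2% GC, beside 50.3% for CHRNA3 and 41.9% for CHRNA5, and the part of GC content in the ratios was not tested beyond this fit.

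**Figure D3:**
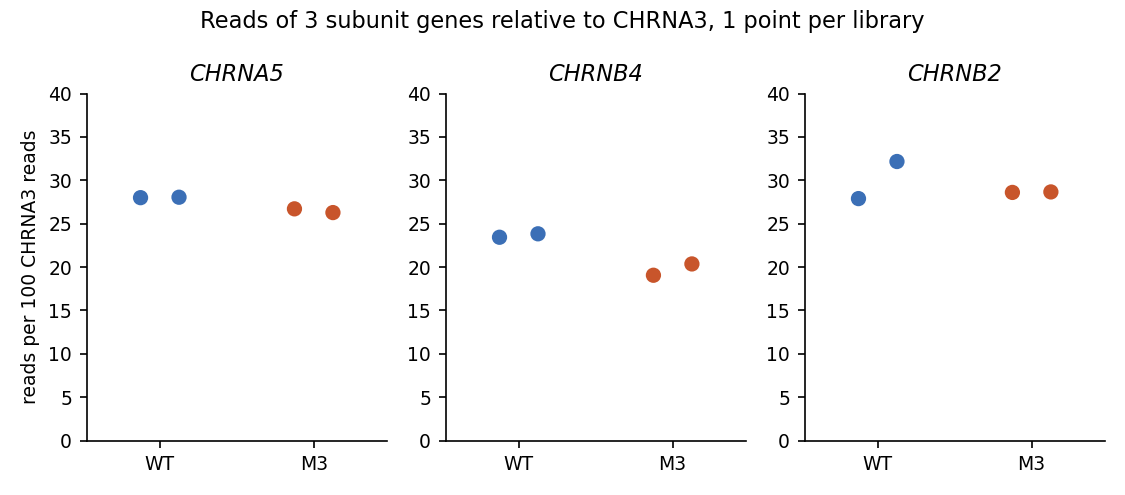
Reads of CHRNA5, CHRNB4 and CHRNB2 per 100 CHRNA3 reads (y axis, from 0) in each WT (blue) and M3 (orange) library. CHRNB4 is at 23.4 and 23.8 in WT and 19.1 and 20.4 in M3, and CHRNB2 overlaps between groups.

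Around the CHRNA5-CHRNA3-CHRNB4 cluster, 7 genes of chromosome 15 were measured, and 1 of them rose and none fell. IREB2, an iron-responsive RNA-binding protein, measured 82.8 and 102 CPM in the WT libraries and 174 and 158 CPM in the M3 libraries, with a log2 fold change of 0.84 ± 0.14 (edgeR adjusted p = 0.0204; 95% interval 0.52 to 1.16). The IREB2 call was lost in the fit without length and GC trends (0.29, adjusted p = 0.0684) and without M3 library 1 (0.0643). HYKK and CTSH, named after their values were seen, were lower in both M3 libraries without passing the test. HYKK, a hydroxylysine kinase with 9 to 38 reads per library, had a log2 fold change of -1.27 ± 0.44 (edgeR adjusted p = 0.0787). The protease gene CTSH had one of -0.57 ± 0.18 (edgeR adjusted p = 0.0613). The median of the 7 neighbours was -0.17, and differences between neighbours and subunit genes were not tested. PSMA4, a proteasome subunit and the nearest tested gene that does not overlap CHRNA5, stood at -0.25 ± 0.14 (edgeR adjusted p = 0.218).

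**Figure D4:**
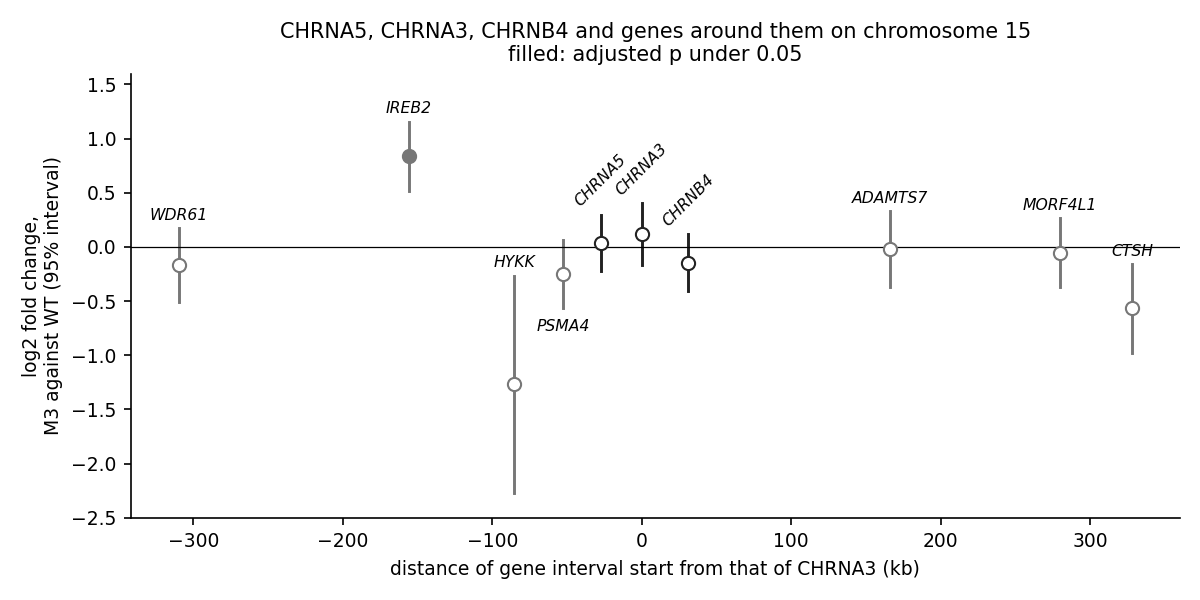
Log2 fold change of M3 against WT with its 95% interval (y axis) by distance from CHRNA3 in kilobases, between the lowest coordinates of the genes (x axis), for the 3 clustered subunit genes (black) and 7 genes around them (grey). IREB2 at 0.84 is the filled point, past an adjusted p of 0.05, and the 3 subunit genes lie between -0.15 and 0.12.

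Of 10 further genes of the family, CHRFAM7A included, CHRNA2, CHRFAM7A and CHRNA10 passed the filter. None was called by edgeR with all libraries and no covariate. CHRNA2, an alpha subunit that also pairs with beta 2 or beta 4, measured 7.13 and 6.94 CPM in the WT libraries and 4.99 and 3.90 CPM in the M3 libraries (log2 fold change -0.66 ± 0.24, edgeR adjusted p = 0.0828), so its groups did not overlap. CHRNA2 was called lower with the crossed replicate block (-0.66, edgeR adjusted p = 0.0333). With 1 library left out its log2 fold change ran from -0.85 to -0.49. CHRNA2 was also called lower without WT library 2 (-0.68), a fit in which WT is a lone library. CHRNA10, a subunit of receptors in hair cells, had 5 to 15 reads per library, CHRNA6 had 1 read in all, and CHRNA4, CHRNA9 and CHRNB3 had none in any library.

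Genes that act on or beside these receptors mostly did not pass the test. None of 10 assembly and chaperone genes passed (median -0.15). In the fit without length and GC trends UBXN2A, named after its values were seen, was called lower (-0.60, edgeR adjusted p = 0.0273), beside -0.20 (0.313) with those trends kept. The abundant chaperones CANX and HSPA5 stood at 0.28 and 0.05. RIC3, an endoplasmic reticulum protein that helps alpha 7 assemble, measured 5.53 and 11.8 CPM in the WT libraries and 9.12 and 7.38 CPM in the M3 libraries, and TMEM35A, a chaperone of neuronal nicotinic receptors, stood at 23.3 and 22.7 CPM in WT and 17.9 and 20.7 CPM in M3 (log2 fold change -0.25, edgeR adjusted p = 0.264). Both were singled out for their role after their values were seen. Of 3 tested genes of the LY6 family, whose products bind nicotinic receptors, 1 fell. LYNX1, a brake on nicotinic receptors in brain, fell from 14.3 and 11.4 CPM in WT to 6.31 and 7.38 CPM in M3, a log2 fold change of -0.90 ± 0.21 (edgeR adjusted p = 0.0301), and lost the call without M3 library 1 (0.180) and with total-count scaling (0.0533).

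None of 7 tested genes of acetylcholine synthesis, transport and breakdown passed (median 0.13). The vesicular transporter gene SLC18A3 was at -0.20 and the cholinesterase BCHE at 0.15, and CHAT, which makes acetylcholine and was named after its values were seen, had 48 and 137 reads under WT against 71 and 110 under M3. None of 3 tested genes of the neuromuscular synapse passed. Agrin (AGRN) stood at 0.34 and its receptor LRP4 at 0.36, with edgeR adjusted p of 0.0937 and 0.190. DOK7, named after its values were seen, had 11 and 11 reads under WT against 24 and 20 under M3 (1.27 ± 0.48, edgeR adjusted p = 0.0986). All 3 stood above 0 with groups that did not overlap, beside 68.2% of all tested genes without overlap. Of 3 tested muscarinic receptor genes, which encode the G protein-coupled receptors for acetylcholine, 1 rose. CHRM3 measured 32.4 and 40.2 CPM in the WT libraries and 69.4 and 63.3 CPM in the M3 libraries, a log2 fold change of 0.86 ± 0.15 (edgeR adjusted p = 0.0204). It was 0.41 in the fit without length and GC trends (0.0381), and lost the call without M3 library 1 (0.0652). CHRM1, named after its values were seen, had 12 and 18 reads under WT against 1 and 4 under M3, a log2 fold change of -2.23 ± 0.72 (edgeR adjusted p = 0.0651). It was called lower with limma-voom (0.0476), with the crossed replicate block (0.0232) and without WT library 1 (0.0493) or 2 (0.0299). The difference between muscarinic and nicotinic genes was not tested.

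The labelled line was checked against markers. All 8 sympathetic neuroblast markers were read, summing to 6307 and 6023 CPM in WT and 4915 and 4957 CPM in M3; 3 fell (PHOX2A -0.73, DBH -0.71 and TH -0.59), PHOX2A and TH lost the call in the fit without length and GC trends, and all 3 lost it without either M3 library. All 8 sympathetic markers had a log2 fold change below 0 (median -0.39) and groups that did not overlap. Among all tested genes 6.63% were called lower and 68.2% did not overlap. Skeletal muscle markers summed to 30.4 to 30.7 CPM in WT and 31.2 to 33.8 CPM in M3. Of these 11 genes, MYF5 and MYF6 had no read, MYOD1 had at most 2 and MYOG at most 2, and 1 of 4 tested fell, the embryonic myosin gene MYH3 (-0.89 ± 0.24, edgeR adjusted p = 0.0408), which lost the call with DESeq2 (0.0672), with total-count scaling (0.0776) and without either M3 library (0.265 and 0.135). The titin gene TTN, named after its values were seen, measured 6.89 and 11.3 CPM in the WT libraries and 20.9 and 13.1 CPM in the M3 libraries (0.87 ± 0.28, edgeR adjusted p = 0.0651; 0.23 in the fit without length and GC trends). TNNT1, also named after its values were seen, measured 14.7 and 12.1 CPM in WT and 8.18 and 13.3 CPM in M3, where the groups overlapped. Schwann and glial markers summed to 8.01 and 8.31 CPM in WT and 5.22 and 6.24 CPM in M3, and fibroblast markers to 31.4 and 15.5 CPM in WT and 24.6 and 23.4 CPM in M3, with COL1A1 and PDGFRA the most abundant by mean. None of either list was called. WT library 1, in which CHRNA7 was high, also had 109 reads of the collagen gene COL1A2, beside 0, 24 and 30 in the other libraries. COL1A2 was named after its values were seen, and the fibroblast list did not move together. By CPM, COL1A1, COL3A1 and DCN were also highest in WT library 1. PDGFRA (4.24 CPM beside 8.74, 10.5 and 9.01) and LUM (0.240 CPM beside 0.523, 1.17 and 0.639) were lowest there. The part of fibroblast RNA in the CHRNA7 value was not tested.

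IWS1 itself measured 370.3 and 394 CPM in the WT libraries and 596 and 599 CPM in the M3 libraries (log2 fold change 0.65 ± 0.12, edgeR adjusted p = 0.0225; 0.203 and 0.134 without M3 library 1 or 2), a count that may pool virus and endogenous transcripts. Reads of no annotated gene made up 23.2% to 23.3% of counted reads in WT and 25.6% to 27.5% in M3. Total-count scaling moved the median over all genes up by 0.12 (log2) and gave 76.4% of calls as higher in M3, beside 58.0% with TMM scaling, so directions are relative to the TMM centre. The signs of the 6 tested members were the same under both scalings.

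**Figure D5:**
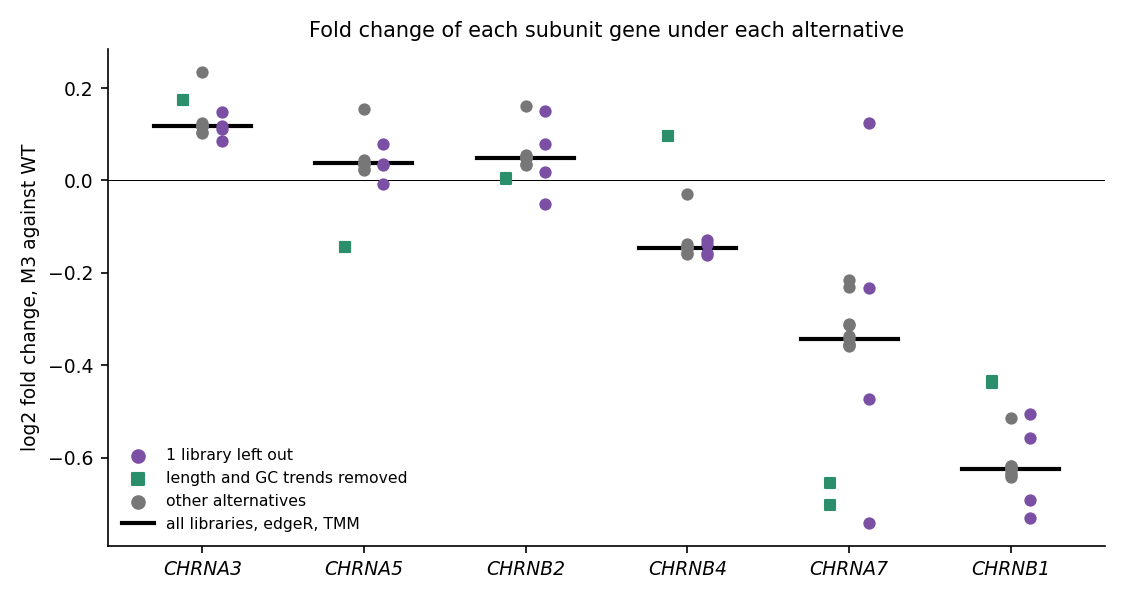
Log2 fold change of M3 against WT (y axis) for each tested subunit gene (x axis) with all libraries (black line) and under 15 alternatives (points). CHRNA3 stays above 0 and CHRNB1 below 0 under every alternative run, from 0.09 to 0.24 and from -0.73 to -0.43, while CHRNA5, CHRNA7, CHRNB2 and CHRNB4 cross 0.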

How the data were processed

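The authors deposited raw read counts, in whole numbers, for each gene symbol and library. Per the submitters' processing notes the tools were HISAT2 2.1.0, HTSeq and DESeq2, with the hg38 build; no source used here gives the annotation, the strand setting or the treatment of reads with several positions. The 5 summary values at the end of each table entered neither library sizes nor tests. The largest of them, reads of no annotated feature, held 23.2% to 27.5% of counted reads.

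M3 was compared with WT with edgeR 4.0.16 in R 4.3.3 (filterByExpr, TMM, robust quasi-likelihood F test, no covariate, Benjamini-Hochberg adjustment over 14141 genes, threshold 0.05). The SE is the log2 fold change over the root of F, and 95% intervals use the test's degrees of freedom. The alternatives were other scalings, count filters, DESeq2 1.42.0, limma-voom (limma 3.58.1), the replicate block, removal of length and GC trends (natural splines, 5 degrees of freedom), and each library left out. The crossed block was added after seeing the data. Fits were also run on simulated counts, with changes larger than those of the members and without length or GC trends. That run does not show how well changes of the members' size would be found.

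The members, the gene lists, the rule for named genes and the tests were chosen with earlier results of these data known. The rule names all members, IWS1, other subunit genes with reads, up to 4 called genes per list or otherwise the 2 most abundant, the nearest tested neighbours, and the most alike gene among those of at least 10 CPM. Exons came from GENCODE 29, positions and start windows from RefSeq (GRCh38.p14). Of 28063 symbols, 26084 matched RefSeq by symbol and 1052 by synonym.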

Additional observations from a re-analysis of the deposited data

How the results depend on the processing

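Over 15 alternatives, no member was called higher in M3. A single member was called lower (1 in place of 0) with the crossed replicate block (CHRNB1) and when WT library 1 (CHRNB1) or WT library 2 (CHRNA7) was left out, so that the count of members lower ran from 0 to 1 over the fits without 1 library; it was 0 in the other alternatives run. These fits take the spread of a lone library from the other group. Of the members that changed sign, CHRNA5 was at -0.14 with the length and GC trends removed, at -0.15 with the replicate block added to that fit, and between -0.0072 and 0.0796 with 1 library left out. CHRNB4 was at 0.10 in both fits with the trends removed (0.0956 and 0.0970). With 1 library left out CHRNA7 ran from -0.74 to 0.12 and CHRNB2 from -0.0503 to 0.15. CHRNA3 and CHRNB1 kept their sign in all 15. The count of called genes, 2232, became 1120 with total-count scaling, 3945 without a count filter, 685 with the trends removed and 842 with the replicate block added to that, 5314 with the crossed replicate block, and 366 to 6770 with 1 library left out (3571 without WT 1, 6770 without WT 2, 366 without M3 1 and 1079 without M3 2). At an adjusted p of 0.01 edgeR with all libraries and the standard filter, under each of the 4 scalings, called 0 genes, as did limma-voom, while 5078 had an unadjusted edgeR p below 0.05 with TMM. DESeq2 called 1306 at 0.01, and edgeR 2542 without a count filter, 1154 with the replicate block, 3853 with the crossed block, 101 with the trends removed and 116 to 5354 with 1 library left out. With the replicate block alone 2315 genes and no member were called. Deviations of same-numbered libraries from their group means were weakly correlated (r = -0.14). With 2 libraries per group this value cannot show whether they were paired, and the numbers were not taken as pairs. Without a filter CHRNA1 entered with its 1 read and no fold is given. Few reads limit CHRNA7, CHRNB1 and CHRNA1.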

Other observations

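The genes next to the subunit genes gave no call. Genes that overlap a member were left out here, and no nearest tested gene on either side of the 7 members passed the edgeR test. Among all tested genes 15.8% did, and these neighbours are too few to set against that share. They include the members CHRNA3 and CHRNB4, and PSMA4 is the neighbour of both CHRNA3 and CHRNA5. FGF11, a fibroblast growth factor family gene that ends 124 nt before CHRNB1, measured 22.3 and 24.7 CPM in the WT libraries and 16.1 and 18.9 CPM in the M3 libraries, a log2 fold change of -0.43 ± 0.16 (edgeR adjusted p = 0.0916), beside -0.63 for CHRNB1. ZBTB4, on the other side of CHRNB1, stood at 0.05 ± 0.16. UBE2Q1 and ADAR, on the sides of CHRNB2, stood at -0.33 and 0.26 (± 0.12 and 0.13). CHRNA1, with 1 read in all, lies between H3F3AP4 and CHN1, which were read at 72.0 to 92.1 CPM and 57.6 to 72.7 CPM.

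Genes with a pattern over the 4 libraries most like that of a member were sought among genes of at least 10 CPM, by the Euclidean distance between log2 CPM centred on each gene's mean. They were UBE2G1 for CHRNA3 (distance 0.02), CCNI for CHRNA5 (0.01), MADD for CHRNB2 (0.0069), ZNF316 for CHRNB4 (0.02), SLC25A42 for CHRNB1 (0.08) and LMCD1 for CHRNA7 (0.14). Between 244 and 376 of 9828 genes lay within 0.1 of each of the first 4, so a close match over 4 libraries is common there. For CHRNB1 there were 3 such genes and for CHRNA7 there were 0.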
